A study of Mus musculus with 15 samples.

Results

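Matrix metalloproteinases (MMPs) are zinc-dependent proteases that cut the proteins of the extracellular matrix, and the tissue inhibitors of metalloproteinases (TIMPs) bind and block them. The 10 genes described here are the 7 MMPs Mmp2, Mmp3, Mmp7, Mmp9, Mmp10, Mmp13 and Mmp14 and the 3 inhibitors Timp1, Timp2 and Timp3. They were taken by gene name from the array annotation, which gave 15 of the 56605 non-control probes and 10 of the 37062 named genes. Of the 10 genes, 8 had a probe that was clearly brighter than background on 5 or more of the 15 arrays (the scanner software's well-above-background mark). These 8 were tested among 22012 genes, and Mmp7 and Mmp9 were not tested.

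The RNA came from the scraped mucosa of the last 30 mm of the descending colon of female Balb/cJ mice, measured on 1-colour Agilent arrays with 1 mouse per array and 5 mice per group. The water group drank plain water. The DSS vehicle group drank 4% dextran sulfate sodium (DSS), a polymer that injures the colonic epithelium, in 3 cycles of 4 days separated by washouts of 3 days, and received the vehicle of the drug. The DSS filgotinib group had the same DSS cycles and 30 mg/kg of filgotinib, a JAK1 inhibitor, by gavage every day. The mice were 8 weeks old when the cycles began, and no genetic change is stated for any group. The labels give the water group's compound as a vehicle control and the design text names drinking water alone, so whether these mice were gavaged is not settled. DSS colitis is a chemical injury of a wild-type colon, and no group received filgotinib without DSS.

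In the colon, MMPs are made by epithelial cells at wound edges, by fibroblasts and by infiltrating leukocytes, and most are secreted as proenzymes that other proteases activate. Mmp3 and Mmp10 are stromelysins with broad substrates, Mmp13 is an interstitial collagenase, Mmp2 and Mmp9 are gelatinases, Mmp7 is matrilysin and Mmp14 is a membrane-bound collagenase that activates pro-Mmp2. Timp2 takes part in that activation, Timp1 is an inducible secreted inhibitor, and Timp3 is bound to the matrix and also inhibits ADAM proteases.

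Mmp13, Mmp3, Mmp10 and Mmp7 lie within 427.1 kb of chromosome 9, between 7272514 and 7699585 in GRCm38.p6. Their 250 bases before the annotated start are shown because 3 of these 4 genes had the largest DSS changes among the members. The other members lie on chromosomes 2 (Mmp9), 8 (Mmp2), 10 (Timp3), 11 (Timp2), 14 (Mmp14) and X (Timp1). The RefSeq windows on the plus strand are chr9:7272264-7272513 for Mmp13, chr9:7445572-7445821 for Mmp3, chr9:7502092-7502341 for Mmp10 and chr9:7691840-7692089 for Mmp7. Capitals mark the AP-1 motif TGANTCA and the TATA motif TATAAA.
Mmp13: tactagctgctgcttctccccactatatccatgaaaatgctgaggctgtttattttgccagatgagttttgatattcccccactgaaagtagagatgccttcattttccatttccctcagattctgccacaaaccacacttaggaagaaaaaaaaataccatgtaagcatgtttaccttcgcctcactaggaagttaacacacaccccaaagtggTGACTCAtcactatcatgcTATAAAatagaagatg
Mmp3: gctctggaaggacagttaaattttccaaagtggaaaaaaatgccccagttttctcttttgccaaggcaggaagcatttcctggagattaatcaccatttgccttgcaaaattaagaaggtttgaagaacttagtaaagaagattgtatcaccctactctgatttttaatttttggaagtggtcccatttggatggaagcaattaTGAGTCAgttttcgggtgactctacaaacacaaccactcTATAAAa
Mmp10: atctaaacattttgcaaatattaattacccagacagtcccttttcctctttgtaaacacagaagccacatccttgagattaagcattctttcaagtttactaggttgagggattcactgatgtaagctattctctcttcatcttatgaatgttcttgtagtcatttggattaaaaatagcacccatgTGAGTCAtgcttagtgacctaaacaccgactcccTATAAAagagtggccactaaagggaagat
Mmp7: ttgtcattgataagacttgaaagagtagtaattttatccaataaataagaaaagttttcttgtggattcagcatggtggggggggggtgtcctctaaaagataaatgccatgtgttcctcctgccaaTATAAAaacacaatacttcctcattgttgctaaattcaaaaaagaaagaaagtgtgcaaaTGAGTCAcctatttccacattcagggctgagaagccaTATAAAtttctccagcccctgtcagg
Each of the 4 windows held 1 AP-1 match, with its first base at -35 in Mmp13, -46 in Mmp3, -63 in Mmp10 and -63 in Mmp7, counted from the annotated start. AP-1 is the dimer of Fos and Jun family proteins, and its motif occurred in 6.75% of 32851 mouse promoter windows of the same length. A TATA match followed it at -16, -7, -29 and -26, against 12.4% of all windows. A second window of Mmp7, at another annotated start, held neither motif.

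None of the 4 windows of Mmp14, Timp1, Timp2 and Timp3 held the AP-1 or the TATA motif. Among a list of other MMPs and Timp4, the 6 on chromosome 9 held the AP-1 motif in 4 genes (Mmp1a, Mmp1b, Mmp12 and Mmp20) and the TATA motif in 3, so neither is particular to the members. Of 8 genes of that list on other chromosomes, 0 held the AP-1 motif and 1 the TATA motif. The ETS-type motif AGGAAG was in 3 of the 4 chromosome 9 genes and in 3 of the 4 others, against 29.5% of all windows. The STAT motif TTCNNNGAA was in none of the 8, against 7.02% of all windows. Both strands were searched, no matches of different motifs overlapped, and Mmp2 and Mmp9 were not searched. A match is a description of the letters and not a bound site.

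**Figure D1:**
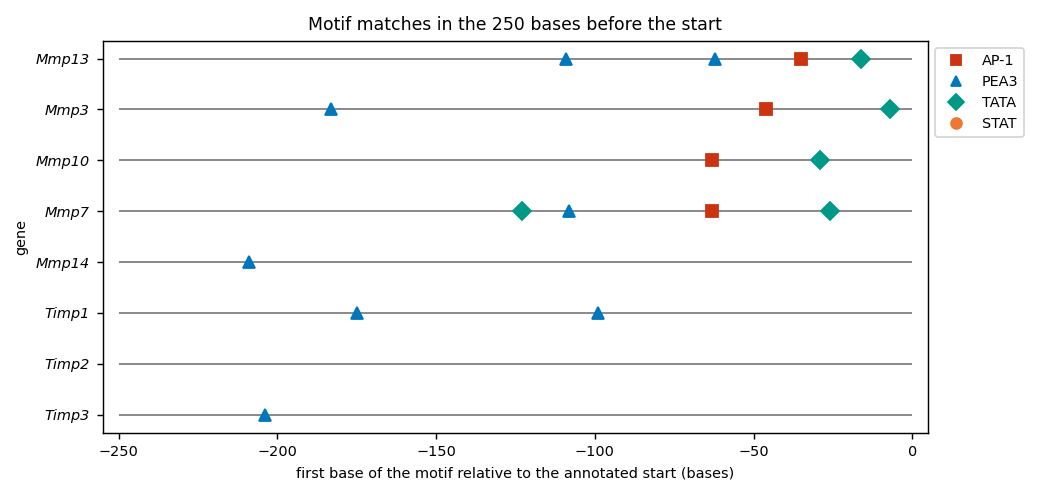
Positions of 4 motifs in the 250 bases before the annotated start of 8 members; each grey line is a gene, the x axis gives the motif's first base relative to the start, and symbols mark matches on either strand. AP-1 squares stand at -35 to -63 in the 4 chromosome 9 genes drawn and in none of the other 4, and no STAT match is present.

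Depth on arrays is set by brightness over background. Between 50.2% and 62.1% of non-control probes were well above background per array, and precision is limited by having 5 arrays a group. Levels below are log2 signals relative to the array's 75th percentile, so 0 is a bright probe and about -5 and lower is at background on most arrays. The lowest signal well above background lay between -5.275 and -4.722 on water arrays. It lay between -4.842 and -3.982 in DSS vehicle and between -4.659 and -3.846 in DSS filgotinib. Background readings can therefore sit higher on DSS arrays, and their part in differences of dim probes from water was not tested. Levels of different genes are not compared, since probes differ in brightness. The labels do not say whether the mice shared cages or RNA was extracted together, so p-values measure the spread between these mice. Slide and scan day were both taken from the scan time in the array headers. Arrays with the same scan time are called a slide here, and no slide number was read. Both divide the groups unevenly, and values within them stand beside the results. The scaling also moves the balance of all genes: of the genes called, 56.2% were higher in DSS vehicle than in water, 59.2% with filgotinib than in DSS vehicle and 64.6% with both than in water. With each array set to its median instead, these shares were 37.8%, 73.6% and 48.7%. The last was 47.1% with quantile normalization and 82.6% with normexp background correction.

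DSS was followed by higher Mmp13, Mmp10, Mmp3 and Timp1 and by lower Timp3. The first 3 went from readings at background in every water mouse to clear signals in 14 of 15 readings, and the change in the inhibitors was smaller. Across the 8 tested members the calls were 4 higher and 1 lower (limma, adjusted p under 0.05), where 19.2% of all genes were called, 10.8% higher and 8.41% lower. The median log2 change of the 8 was 1.45, against 0.05 over all genes. Mmp3, Mmp10 and Mmp13 passed the background filter through arrays of DSS mice alone, and the dim Mmp7 and Mmp9 did not pass it. The count and the median therefore lean towards members that were bright with DSS.

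Mmp13, the collagenase, read -5.38, -7.46, -7.08, -7.47 and -7.18 in water mice 1 to 5, none well above background. The DSS vehicle mice read -1.56, -3.88, -0.90, -0.99 and -1.38, all well above background. The groups did not overlap, and mouse 2 was the lowest of the DSS vehicle mice. Mmp13 rose at least 10.1-fold, with a fitted log2 difference of 5.17 ± 0.63 (SE) and a limma adjusted p of 0.000203. The "at least" fold sets the mean of the bright group against the lowest signal well above background on the arrays of the dim group. Where the probe's own signal was higher, that signal was used. This fold carries no sampling error, so it limits what dim readings add and not the spread between mice.

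Mmp10, a stromelysin of wound-edge epithelium, read -6.07, -7.55, -7.15, -6.06 and -6.46 in the water mice, again none well above background. In the DSS vehicle mice it read -1.18, -3.07, 0.31, 0.12 and -0.46. All 5 DSS vehicle mice were above all 5 water mice, and mouse 2 was again the lowest. Mmp10 rose at least 18.7-fold (fitted log2 difference 5.80 ± 0.78, limma adjusted p = 0.000401), the largest "at least" fold among the members.

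Mmp3, the other stromelysin, read -6.73, -7.39, -7.03, -7.42 and -7.43 in water and -2.14, -5.60, -1.75, -1.86 and -1.60 in DSS vehicle. The DSS vehicle mouse 2 was not well above background, and the other 4 mice lay close together. Mmp3 rose at least 5.61-fold (fitted log2 difference 4.61 ± 0.93, limma adjusted p = 0.00448), a bound that takes the dim reading of mouse 2 as it was. For Mmp3, Mmp10, Mmp13 and Timp3 the values of the DSS vehicle and water groups did not overlap, which held for 16% of all genes tested. With normexp, whose offset of 50 compresses dim signals, the log2 differences were 2.86 for Mmp10, 2.16 for Mmp13 and 1.77 for Mmp3, below the bounds given, and all stayed called. The exact two-sided permutation p of each was 0.00794, the smallest that 5 against 5 mice can give.

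Timp1, the inducible inhibitor, read -1.77, -2.05, -2.16, -1.74 and -1.60 in water and -1.03, -1.71, -0.70, -0.77 and -0.78 in DSS vehicle. Mouse 2 of the DSS vehicle group lay inside the water range, and the other 4 lay above it. Timp1 rose 1.83-fold (log2 0.87 ± 0.29, limma adjusted p = 0.0476). This call sat at the threshold and was lost without any of 10 single mice (water 1 to 5, DSS vehicle 1, 3, 4 and 5, or DSS filgotinib 4), with adjusted p from 0.0235 to 0.0982 over the 15 omissions.

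Timp3, the matrix-bound inhibitor, moved the other way. It read 3.25, 3.03, 3.08, 2.73 and 3.60 in water and 0.64, 1.71, 1.88, 1.46 and 2.47 in DSS vehicle. Every DSS vehicle mouse was below every water mouse. Timp3 fell 2.84-fold (log2 -1.51 ± 0.33, limma adjusted p = 0.00692). A second Timp3 probe gave a log2 difference of -1.39 with a limma adjusted p of 0.0161, and the third was well above background on 1 of 15 arrays.

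Mmp2, Timp2 and Mmp14, the proteins of pro-Mmp2 activation, did not pass the test in this comparison. Mmp2 read -2.10, -4.57, -4.14, -3.54 and -1.61 in water and -2.17, -2.38, -1.0, -1.04 and -0.22 in DSS vehicle, a log2 difference of 1.83 with a 95% interval of -0.24 to 3.90 (limma adjusted p = 0.197). Mmp14 read between -2.53 and -2.19 in water and between -2.53 and -2.0 in DSS vehicle, a difference of 0.10 with an interval of -0.21 to 0.42 (limma adjusted p = 0.659). The Mmp2 interval includes both no change and a large rise, whereas the Mmp14 interval holds changes of less than 1 log2 unit either way.

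The Timp2 probe that was tested read 1.63, 0.30, 0.22, 0.36 and 2.16 in water and 1.85, 0.76, 1.97, 1.57 and 3.86 in DSS vehicle (log2 difference 1.07 ± 0.69, limma adjusted p = 0.297). The other Timp2 probe had the opposite sign, with means of -1.91 ± 0.25 in water and -2.30 ± 0.75 in DSS vehicle (SD, n = 5). The direction of Timp2 is therefore not settled by these arrays.

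**Figure D2:**
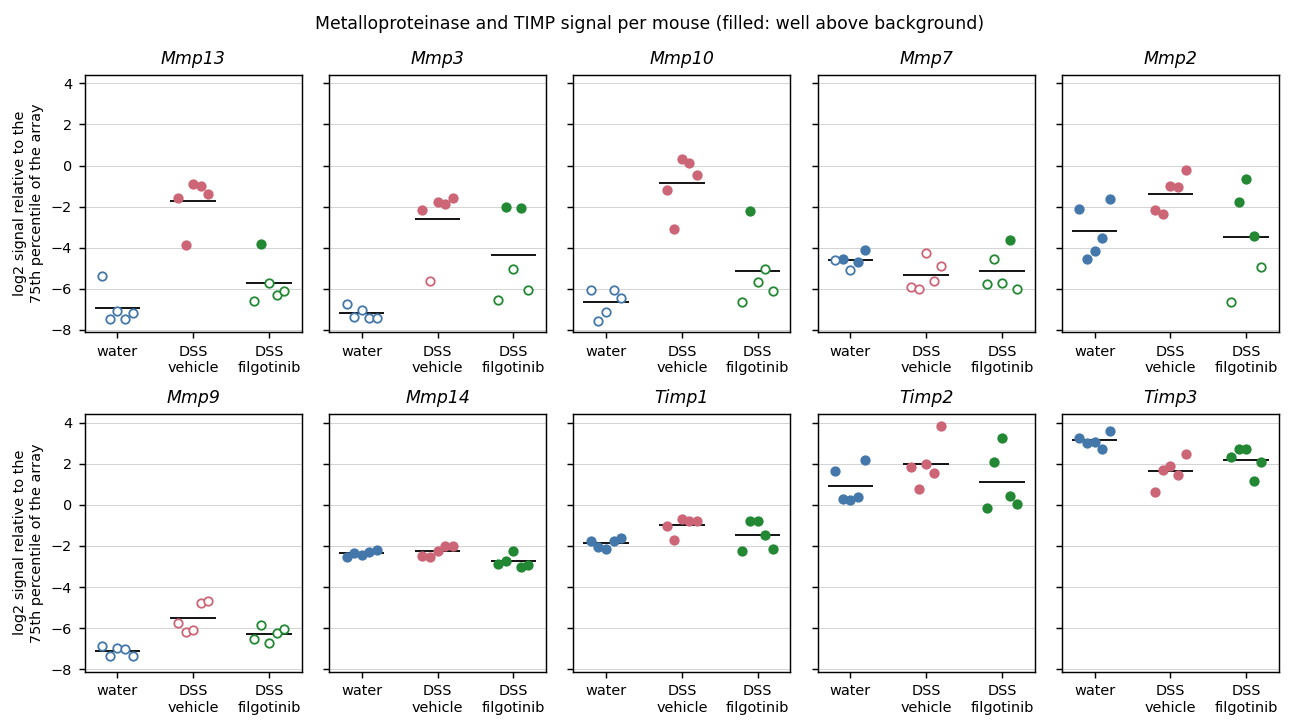
Signal of the 10 members in each mouse, as log2 relative to the array's 75th percentile, in the water, DSS vehicle and DSS filgotinib groups (5 mice each, drawn left to right from mouse 1 to 5); filled points were well above background, open ones were not, and lines are group means. Mmp13, Mmp10 and Mmp3 go from open points between -7.55 and -5.38 in water to mostly filled points in DSS vehicle, and Timp3 lies lowest in DSS vehicle; the brighter probe is drawn for Mmp7 and Mmp9.

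Mmp7, which epithelial and Paneth cells secrete, and Mmp9, the gelatinase of neutrophils and macrophages, stayed near background. The 2 Mmp7 probes were each well above background on 4 of 15 arrays, 3 of water mice and 1 of a DSS filgotinib mouse, filgotinib mouse 4, which read -3.77 and -3.60. The Mmp9 probes were well above background on 1 and 0 arrays. The single Mmp9 reading above background was -4.07, in DSS filgotinib mouse 3. With no background filter, the Mmp9 readings of DSS vehicle and water passed limma's test (adjusted p = 0.00441), yet none of those readings was well above background. No fold was taken for either gene, and these readings do not show that the genes are silent.

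The slides limit the DSS comparison. Water and DSS vehicle mice shared only slide 4, with DSS vehicle mouse 2 and water mice 3 and 5, and there the log2 differences were 3.73 for Mmp10, 3.24 for Mmp13, 1.63 for Mmp3, 0.18 for Timp1 and -1.63 for Timp3. With slide as a fixed block, which rests on that slide, none of the 5 calls held (adjusted p 0.288, 0.228, 0.725, 0.913 and 0.287 in the same order). Over all genes that block left 32 called higher and 48 lower, against 2375 and 1852 without it. On the first scan day, with 3 mice of each group, the differences were 6.05, 5.46, 5.31, 0.99 and -1.48 in the same order.

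Adding filgotinib to DSS was followed by lower Mmp10, Mmp13 and Mmp14 than in DSS vehicle. Of the 8 tested members, 3 were called lower and 0 higher, where 11.2% of all genes were called, 4.58% lower and 6.65% higher. At an unadjusted limma p under 0.05, 4 of the 8 passed, against 28.4% of all genes, and none of these 4 was higher. The median log2 difference of the 8 was -1.31, against -0.001 over all genes. Mmp3, Mmp10 and Mmp13 passed the background filter mostly through DSS vehicle arrays, so this count and median also lean towards members bright in that group. This comparison shares the DSS vehicle arrays with the first, so the values of both are given side by side and no overlap is drawn from them.

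Mmp10 read -6.64, -2.22, -5.68, -5.04 and -6.13 in DSS filgotinib mice 1 to 5. Mouse 2 alone was well above background and lay inside the DSS vehicle range, and the other 4 lay below it. The fitted log2 difference from DSS vehicle was -4.29 ± 0.78 (limma adjusted p = 0.00496), beside 5.80 for DSS vehicle against water. Since 4 of the 5 filgotinib readings were at background, its size is uncertain: with those readings raised to the lowest signal well above background on their arrays, a setting chosen after seeing the data, the difference was -2.96, or 7.79-fold. With normexp background correction it was -2.14.

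Mmp13 read -6.61, -3.82, -5.71, -6.32 and -6.13 in the same mice. Mouse 2 again stood apart, at the level of the lowest DSS vehicle mouse. The fitted log2 difference was -3.97 ± 0.63 (limma adjusted p = 0.00267), beside 5.17 for DSS vehicle against water. Here too 4 of 5 filgotinib readings were at background, and the difference was -2.40, or 5.26-fold, with them raised in the same way, and -1.63 with normexp. Both calls held without any single mouse, with adjusted p from 0.000857 to 0.0154 for Mmp10 and from 0.00095 to 0.00905 for Mmp13.

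Mmp14, the activator of pro-Mmp2, read -2.86, -2.75, -2.23, -3.01 and -2.91 with filgotinib, against -2.49, -2.53, -2.25, -2.01 and -2.0 in DSS vehicle. Mouse 3 lay inside the DSS vehicle range and the other 4 lay below it. Mmp14 was 1.41-fold lower (log2 -0.50 ± 0.15, limma adjusted p = 0.0434). The call was lost without any of 12 single mice (all but water 3, DSS vehicle 2 and DSS filgotinib 3), with adjusted p from 0.00682 to 0.103.

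Mmp3 did not pass this test. It read -6.52, -2.01, -5.02, -2.08 and -6.08 with filgotinib, a fitted log2 difference of -1.75 with a 95% interval of -3.75 to 0.24 (limma adjusted p = 0.235), and -0.94 with dim readings raised as above. Mice 2 and 4 were at the level of the 4 high DSS vehicle mice, and mice 1, 3 and 5 were not well above background. Mmp3 and Mmp10 thus parted in mouse 4, where Mmp3 was bright and Mmp10 was not well above background.

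Mmp2 read -6.66, -1.78, -0.66, -3.41 and -4.96 with filgotinib, and mice 1 and 5 were not well above background. Its fitted log2 difference from DSS vehicle was -2.13 with an interval of -4.21 to -0.06 (limma adjusted p = 0.165), and -1.44 with those 2 readings raised as above. Without DSS filgotinib mouse 3 the adjusted p was 0.0495. Timp1 read -2.23, -0.80, -0.80, -1.45 and -2.15, a difference of -0.49 with an interval of -1.10 to 0.12 (limma adjusted p = 0.282). Mice 1 and 5 were low and mice 2 and 3 high for Mmp2 and Timp1 alike.

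The tested Timp2 probe read -0.13, 2.07, 3.24, 0.43 and 0.06 with filgotinib. Its difference from DSS vehicle was -0.87 with an interval of -2.36 to 0.62 (limma adjusted p = 0.442). The other Timp2 probe had a mean of -2.30 in DSS vehicle and of -2.30 in DSS filgotinib. Timp3 read 2.31, 2.70, 2.73, 1.18 and 2.07, a difference of 0.57 with an interval of -0.14 to 1.27 (limma adjusted p = 0.279). For Timp3, mice 2 and 3 lay above all DSS vehicle mice. Mouse 2 lay below all water mice, and mouse 3 was level with the lowest water mouse.

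No member's values were free of overlap between DSS filgotinib and DSS vehicle, a separation that 7.96% of all genes had. On slide 2, with 2 filgotinib and 3 DSS vehicle mice, the log2 differences were -3.92 for Mmp10, -3.90 for Mmp13 and -0.64 for Mmp14. On the first scan day, with 4 and 3 mice, they were -4.50, -4.41 and -0.72. With slide as a fixed block Mmp13 stayed called, and Mmp10 and Mmp14 did not (adjusted p = 0.0828 and 0.0695).

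In mice given both DSS and filgotinib, no member differed from water by limma at an adjusted p under 0.05, where 9.54% of all genes were called, 6.16% higher and 3.38% lower. At an unadjusted p under 0.05, 3 of the 8 members passed (Mmp3, Timp3 and Mmp14), where 28.5% of all genes did. This comparison shares its arrays with the other comparisons. The median log2 difference of the 8 was 0.29, against 0.05 over all genes.

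Mmp3 had a fitted log2 difference of 2.86 ± 0.93 from water that did not pass (limma adjusted p = 0.0664). Only 2 of 5 filgotinib mice were well above background, so no lower bound on its fold is given. Its filgotinib and water values did not overlap, which 9.49% of all genes shared, but 3 of the 5 filgotinib readings were at background. Timp3 was lower by a log2 difference of -0.94, with an interval of -1.65 to -0.23 (limma adjusted p = 0.0811). Mmp14 differed by -0.40, with an interval of -0.71 to -0.08 (limma adjusted p = 0.0944).

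The remaining log2 differences from water were 1.51 for Mmp10 with an interval of -0.15 to 3.18 and 1.20 for Mmp13 with an interval of -0.16 to 2.55. They were 0.38 for Timp1, -0.30 for Mmp2 and 0.20 for Timp2. The Mmp10 and Mmp13 values rest on 1 filgotinib reading above background each, and Mmp2 was 0.39 with dim readings raised as above. The intervals do not show that these genes were back at the water level.

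**Figure D3:**
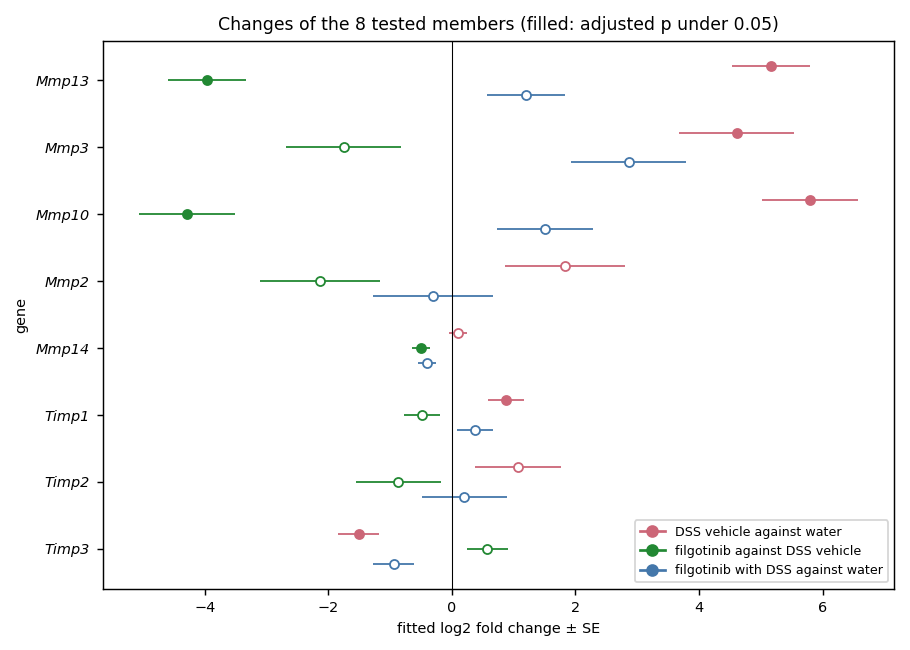
Fitted log2 fold changes with their standard errors for the 8 tested members in the 3 comparisons, which share arrays; filled points had a limma adjusted p under 0.05. DSS vehicle against water reached 5.80 for Mmp10, filgotinib against DSS vehicle reached -4.29 for the same gene, and no point of filgotinib with DSS against water is filled.

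Single mice recurred across the family. DSS vehicle mouse 2 was the lowest of its group for 7 of the 8 tested members, all but Timp3. DSS vehicle mouse 5 was the highest for 5 members, and mouse 3 for Mmp10, Mmp13 and Timp1. In the filgotinib group, mouse 2 was highest for Mmp3, Mmp10 and Mmp13, and mouse 3 was highest for Mmp2, Mmp14 and the 3 TIMPs. Some of these leads were small: Mmp3 read -2.01 in mouse 2 and -2.08 in mouse 4, Timp3 read 2.73 in mouse 3 and 2.70 in mouse 2, and Timp1 read -0.80 in both.

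Fibroblast markers were low and high in many of the same mice as Mmp2. In bulk mucosa, fewer cells of a type and less RNA per cell cannot be told apart. The summed signal of 10 fibroblast markers, as a multiple of the 75th percentile, ranged from 5.63 to 27.3 in water (median 8.45), from 13.7 to 68.5 in DSS vehicle (31.7) and from 3.57 to 55.2 in DSS filgotinib (13.4). All 10 were tested, 1 of them (Fap, a fibroblast activation protease) was called higher in DSS vehicle than in water and lower with filgotinib against DSS vehicle.

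Filgotinib mouse 1 had the lowest fibroblast sum of all 15 mice, 3.57, and an Mmp2 reading not well above background. DSS vehicle mouse 5 had the highest, 68.5, with the highest Mmp2 and Timp2. Filgotinib mouse 3 followed at 55.2. Macrophage and endothelial sums were also highest in DSS vehicle mouse 5 (60.7 and 6.72), followed by filgotinib mouse 3 (39.8 and 5.56). After subtracting group means, r with the fibroblast, macrophage and endothelial sums was 0.98, 0.88 and 0.78 for Mmp2. It was 0.89, 0.80 and 0.67 for Timp1 and 0.94, 0.84 and 0.95 for Timp2. The likeness is therefore not particular to fibroblast markers. The part of any of these markers in the Mmp2, Timp1 and Timp2 values was not tested.

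Mmp3 was set beside B cell markers. Among genes that are no members, those close to Mmp3 over the 15 arrays included Fer1l4 (Pearson r = 0.939) and Cr2, the complement receptor of B cells and follicular dendritic cells (0.938). After subtracting the group means, r was 0.822 and 0.918. A list of 9 B cell markers, added after this was seen, had 7 genes tested (Cd79a and Blk were not). Its summed signal was 1.19 to 1.42 in water.

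The B cell sum in DSS vehicle mice 1 to 5 was 2.16, 1.19, 2.44, 2.37 and 3.4. With filgotinib it was 1.15, 2.3, 1.21, 2.82 and 0.944. The 6 mice with a sum above the water range were the 6 mice in which Mmp3 was well above background. Cr2, picked for its r with Mmp3, is part of this sum, so the match is partly built in. Of the 7 tested B cell genes, 2 (Ms4a1 and Cr2) were called higher in DSS vehicle than in water, and 1 (Cd22) lower with filgotinib than in DSS vehicle. After subtracting group means, r with the B cell sum was 0.94 for Mmp3, 0.70 for Mmp10, 0.61 for Timp1 and 0.56 for Mmp13. It ran from -0.04 (Timp3) to 0.44 (Mmp2) for the other tested members. For Mmp3, r was 0.65 with the macrophage sum and 0.69 with the sum of 6 tested Paneth-like and antimicrobial markers. The likeness to B cell markers is therefore closest for Mmp3 and not particular to it. The part of any of these markers in the Mmp3 values was not tested.

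**Figure D4:**
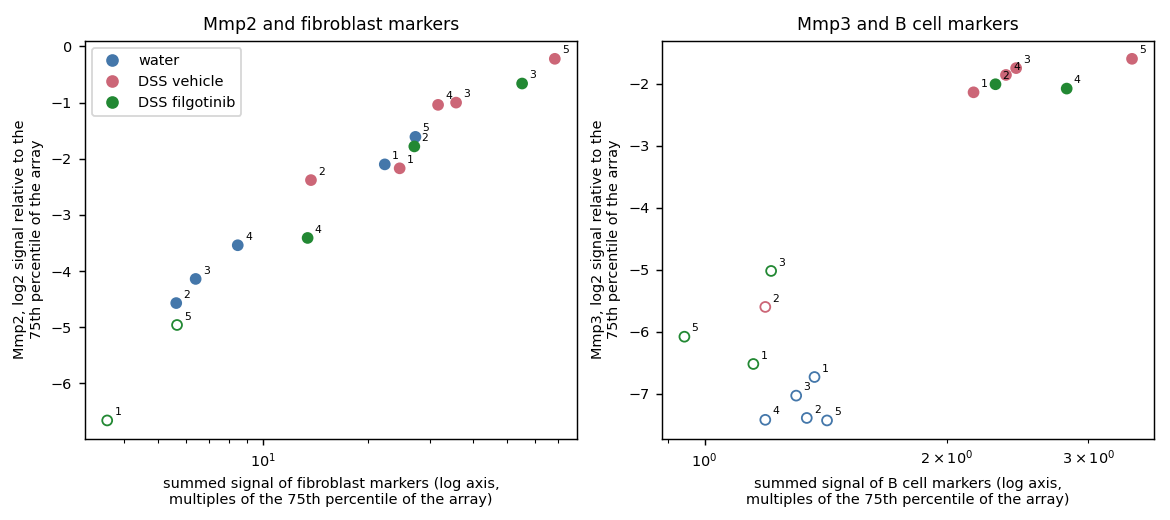
Mmp2 against the summed signal of 10 fibroblast markers (left) and Mmp3 against that of 7 tested B cell markers (right), 1 point per mouse with its number, both x axes logarithmic; filled points were well above background for the MMP. Mmp2 broadly rises with the fibroblast sum from filgotinib mouse 1 (3.57) to DSS vehicle mouse 5 (68.5), and the 6 filled Mmp3 points are the 6 mice with a B cell sum of 2.16 or more. The B cell sum includes Cr2, which was picked for its r with Mmp3.

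By the same measure, Mmp10 was closest to Cxcl5, a neutrophil-attracting chemokine (r = 0.967, and 0.853 after group means), Saa3, an acute-phase protein (0.957 and 0.803), and Il1rl1, the interleukin-33 receptor (0.955 and 0.828). Mmp13 was closest to Saa3 (0.955 and 0.758), Inhba, a subunit of activin (0.952 and 0.854), and Cxcl5 (0.945 and 0.625). These genes were ranked on the same arrays over those of the 22012 tested genes that have an established symbol, members left out. Group differences and shared arrays therefore enter each r.

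Timp1 was closest to Lama1, a laminin chain (r = 0.967, and 0.961 after group means), Col18a1, a basement membrane collagen (0.960 and 0.945), and Serpine2, a serine protease inhibitor (0.955 and 0.960). Timp3 was closest to Itih2, a hyaluronan-binding protein (0.943 and 0.926), Ramp3, a receptor activity-modifying protein (0.921 and 0.921), and Add3, an adducin (0.918 and 0.835).

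Of 8 tested neutrophil markers, 3 were called higher in DSS vehicle than in water, led by S100a9, a calprotectin subunit (log2 3.85 ± 0.82, limma adjusted p = 0.0061), which was lower with filgotinib (log2 -3.12, adjusted p = 0.028). The list's summed signal was 227 to 264 in water, 261 to 300 in DSS vehicle and 238 to 263 in DSS filgotinib. Brighter probes weigh more in such a sum, so it does not measure the change of each marker. Cxcr2 and Retnlg did not reach the filter. Of 9 tested macrophage markers, limma called 0 in any comparison, and 4 were higher with DSS at an unadjusted p under 0.05.

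Of 8 tested squamous markers, 2 (Krt14 and Dsg3) were called higher in DSS vehicle than in water. Their sum was 10.3 to 11.6 in water, 12.4 to 16.9 in DSS vehicle and 10.5 to 14.6 in DSS filgotinib, with Krt4 and Sprr3 not tested. Of 7 tested smooth muscle and 7 tested endothelial markers, limma called 0, with 1 smooth muscle marker higher with DSS and 1 endothelial marker higher with both at an unadjusted p under 0.05. All 8 colonocyte and all 8 goblet markers passed the background filter, with summed signals of 830 to 1230 and 2220 to 3270 over the 15 mice. Of 8 goblet markers, 5 were called higher with DSS than in water. The part of these markers in the members' values was not tested.

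Of 17 listed other MMPs and Timp4, 8 were tested and 1 was called higher in DSS vehicle than in water, Mmp28, an epithelial MMP (log2 0.41 ± 0.12, limma adjusted p = 0.0263). Mmp19 had a larger difference that missed the threshold (log2 2.25 ± 0.76, limma adjusted p = 0.0536). In the other comparisons limma called 0 of the 8, with 0 and 1 at an unadjusted p under 0.05. The median log2 change of these 8 was 0.21 with DSS.

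Among the related ADAM and ADAMTS proteases and meprins, 16 of 20 were tested and 3 rose with DSS. They were Adamts4, an aggrecanase (log2 2.68 ± 0.81, limma adjusted p = 0.0323), Adam8 of leukocytes (1.05 ± 0.25, 0.0116) and the sheddase Adam10 (0.30 ± 0.07, 0.0109). With filgotinib against DSS vehicle, 1 was called higher, Adamts15 (log2 0.60 ± 0.16, limma adjusted p = 0.0266). Against water, 3 were called higher with DSS and filgotinib (Adamts15, Adam15 and Adam10).

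Among 18 tested activators, other inhibitors and binding partners of MMPs, 5 rose and 1 fell with DSS. Mcpt4, a mast cell chymase, rose by 4.39 ± 0.36 on the log2 scale (limma adjusted p = 1.1e-05). Lcn2, which binds Mmp9, rose by 1.76 ± 0.40 (0.00869), and Cma1, another mast cell chymase, changed by -0.92 ± 0.27 (0.029).

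With filgotinib against DSS vehicle, Mcpt4 was lower by a log2 difference of -2.01 (limma adjusted p = 0.00484). Plaur, the urokinase receptor, differed by -0.82 (adjusted p = 0.0344), and Cma1 was higher by 1.66 (adjusted p = 0.00301). Mcpt4 and Cma1 also stand on the mast cell list, of which 8 of 10 were tested. Of those, 4 were higher and 1 lower with DSS, and 1 was higher and 4 lower with filgotinib against DSS vehicle.

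Of 13 tested matrix substrates, 3 rose with DSS, among them Tnc, the wound matrix protein tenascin C (log2 2.30 ± 0.65, limma adjusted p = 0.0253), and Lama5, a laminin chain (0.79 ± 0.22, 0.0211). The median log2 change of the list was 1.52 with DSS and -1.22 with filgotinib against DSS vehicle, but limma called 0 in the latter, with 4 lower at an unadjusted p under 0.05. Some of its collagen and proteoglycan genes also stand on the fibroblast list.

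Of 20 tested upstream cytokines and AP-1 or ETS factors, 8 were higher with DSS. Il11, a stromal cytokine of the gp130 family, rose by 2.83 ± 0.52 on the log2 scale (limma adjusted p = 0.00278), and Socs3, the STAT3 target that dampens JAK signalling, by 2.37 ± 0.29 (0.000191). Il1b rose by 2.22 ± 0.52 (0.00995) and Osmr, the oncostatin M receptor, by 2.05 ± 0.60 (0.0292). Of the AP-1 genes, Junb was called (0.40 ± 0.12, 0.0279) and Fos, Jun, Fosl2 and Jund were not.

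With filgotinib against DSS vehicle, 4 of the 20 were lower and 0 higher by limma (6 lower and 0 higher at an unadjusted p under 0.05). They were Il11 (log2 -2.36, limma adjusted p = 0.0129), Socs3 (-1.58, 0.00492), Tnf (-0.34, 0.0227) and Stat3 (-0.29, 0.0469). In mice given DSS and filgotinib, 1 of the 20 differed from water, Nfkbiz, an inducible cofactor of NF-kB (log2 -0.64, limma adjusted p = 0.0382). Il11 and Socs3 fell with filgotinib as Mmp10 and Mmp13 did, and whether they are related was not tested.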

How the data were processed

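Processed signal intensities were those deposited per array by Agilent Feature Extraction 11.5.1.1, which the submitters' processing notes name with limma; per the file headers they are already background-subtracted. The log2 values deposited in the authors' normalized table served as an alternative, and gave values for 5 of the 8 tested members. Mmp3, Mmp10 and Mmp13 were not among them. Here log2 intensities were set relative to each array's 75th percentile over non-control probes. Of 56605 probes, 101 with an outlier mark were left out, and 33466 were well above background on at least 5 of 15 arrays. Per gene the probe with the highest mean was kept. All 15 arrays entered 1 fit of 3 groups with limma 3.58.1 in R 4.3.3, two-sided, with Benjamini-Hochberg adjustment over 22012 genes and calls at adjusted p under 0.05. The fit was tested on simulated data. Promoter sequences came from RefSeq, GRCm38.p6.

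The members and the gene lists were chosen with earlier results of these data known. The named genes were all members, up to 4 genes per list with the largest change among those called with DSS, other called genes where a count was small, and the 3 genes with the highest r for each member called with DSS. Some genes that this rule names are not reported here. The alternatives tried were other scalings, background corrections, filters, probe rules, slide, scan day and replicate blocks, array weights, and leaving out each mouse. Equal replicate numbers did not pair mice: r of their deviations ranged from -0.52 to 0.53 over 15 pairs.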

Additional observations from a re-analysis of the deposited data

Results flagged for a closer look

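In 3 of 24 sets of 5 mice, 1 mouse stood apart from the other 4 by Dixon's gap measure, which chance gives in about 1 of 20 sets. Mmp3 in DSS vehicle mouse 2 read -5.60, not well above background, while the other 4 mice read between -2.14 and -1.60. Mmp13 in the same mouse read -3.88, below the other 4 of its group, and was well above background. Mmp13 in water mouse 1 read -5.38, above the other 4 water mice, and like them was not well above background.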

How the results depend on the processing

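Mmp3, Mmp10, Mmp13 and Timp3 with DSS against water, and Mmp13 and Mmp10 with filgotinib against DSS vehicle, kept direction under every alternative fit that gave a value and lost the call only with slide as a fixed block (Mmp13 with filgotinib kept it). Sizes moved more: normexp gave 2.86, 2.16 and 1.77 for Mmp10, Mmp13 and Mmp3 with DSS, and -2.14 and -1.63 for Mmp10 and Mmp13 with filgotinib. With that block, 0 members were higher and 0 lower with DSS, and 1 was lower with filgotinib. In the deposited table, with 5 members, 1 was higher with DSS and 1 lower with filgotinib. That table held no values for Mmp3, Mmp10 and Mmp13, so their calls could not be followed in it. Against water, mice given DSS and filgotinib had 1 member higher, Mmp3, with normexp, with no filter or with array weights. Over all genes these settings called 3636 of 22012, 7846 of 37016 and 2048 of 22012 higher. The count with no filter is over the same 8. Mmp9, by a probe well above background on 0 arrays, then also passed (limma adjusted p = 0.0462). In this comparison 1 member was lower with normexp (Timp3), scan day as a block (Mmp14) or array weights (Mmp14). Over all genes these settings called 764, 879 and 1116 of 22012 lower. Leaving out each mouse gave 3 to 4 higher and 1 to 1 lower with DSS, 0 to 0 higher and 2 to 4 lower with filgotinib, and 0 to 1 either way for both against water. Timp1 with DSS also lost its call with no filter (adjusted p = 0.0604), slide as a random block (0.0758), scan day as a block (0.0972) and the replicate block (0.0888). Mmp14 with filgotinib lost it with normexp (0.108), no filter (0.0947), the replicate block (0.0708) and only both groups fitted (0.099). With the replicate block, 3 members were higher and 1 lower with DSS and 2 lower with filgotinib; the same number correlated best in 5 of 30 sets.

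Signs turned only for differences that had not passed. With DSS against water, slide as a fixed block gave -0.21 for Mmp14 and -0.43 for Timp2, and the other Timp2 probe -0.39. With both against water, that block gave -0.77 for Mmp3, -0.19 for Mmp10, -0.66 for Mmp13, -0.48 for Timp1 and -1.89 for Timp2. Mmp2 turned to 0.33 with normexp, and ran from -1.01 to 0.49 over the omissions, above 0 without water 5 (0.09), filgotinib 1 (0.49) or filgotinib 5 (0.06). Timp2 turned to -0.10 as the mean of its probes, -0.48 with scan day, and ran from -0.33 to 0.51 over the omissions, below 0 without filgotinib 2 (-0.04) or 3 (-0.33), with -0.39 by its other probe. Except where a setting changes the genes or mice used, the cause was not tested. The median of all genes moved to 0.116 with normexp, and to 0.146 and 0.162 with no filter. Dim signals limit Mmp3, Mmp10 and Mmp13 in water to bounds, and Mmp7 and Mmp9 could not be followed.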
